A study of Homo sapiens with 9 samples.

Results

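A set of 10 NF-kB genes was followed by RNA-seq in the established myeloma cell line MM1S after knockdown of PHF19 and after shRNA-resistant PHF19 had been added. They were the subunit genes NFKB1, NFKB2, RELA, RELB and REL, the inhibitor genes NFKBIA and TNFAIP3, the adaptor genes TRAF1 and TRAF3, and the ubiquitin ligase gene BIRC3. They were taken by gene symbol from a table of 58387 genes, by a list that uses no threshold on these values but was drawn up with earlier results known, and all 10 passed the filter on low counts that left 16600 genes for testing. The control cells carried an empty lentiviral vector (shEV, n = 3). The knockdown cells carried a lentiviral shRNA against PHF19 (PHF19_KD, n = 3), and the rescued cells carried that shRNA together with shRNA-resistant PHF19 (KD_Rescued, n = 2). Every group was MM1S grown in regular medium, with no added NF-kB stimulus named in the labels. A ninth library was titled as a knockdown but annotated as carrying shRNA-resistant PHF19, so its labels disagree. It was kept apart and entered only alternative fits that counted it as a knockdown or as rescued.

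NF-kB is a family of dimeric transcription factors held in the cytoplasm by inhibitor proteins. In the canonical branch, receptor signals activate the IkB kinase (IKK), the inhibitor IkB-alpha (the product of NFKBIA) is degraded, and dimers containing RelA or c-Rel enter the nucleus. In the noncanonical branch, a complex of TRAF3, TRAF2 and the cIAP proteins keeps the kinase NIK low, and once that brake is released the NFKB2 precursor is processed and pairs with RelB. NFKBIA, TNFAIP3, TRAF1, BIRC3, NFKB2 and RELB are themselves well-known NF-kB targets, and several pathway genes, TRAF3 and BIRC3 among them, are recurrently mutated in myeloma. PHF19 assists the Polycomb complex PRC2, which methylates histone H3 at a lysine linked to gene silencing.

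The knockdown libraries were the shallower ones, with totals of 10609800 to 12024900 counts, against 16974700 to 22739700 in the controls and 23644100 to 23751400 after rescue. PHF19 itself stood at 123, 124 and 103 CPM (read counts normalised to library size with TMM factors) in shEV, at 26.0, 27.5 and 27.3 CPM in PHF19_KD, and at 220.0 and 217.5 CPM in KD_Rescued, above the controls. The 6 plasma cell markers summed to 3157 to 3240 CPM in shEV, 3421 to 3481 CPM in PHF19_KD and 2575 to 2623 CPM in KD_Rescued. After knockdown 3 of them were called higher (among them CD38, at a log2 fold change of 1.16, and SDC1, at 0.60) and 2 lower (IRF4, at -0.78, and TNFRSF17, at -1.07), and in rescued against knockdown cells 2 were called higher and 4 lower. The 3 B cell markers summed to at most 0.236 CPM, the 3 T and NK cell markers to at most 1.75 CPM with CD3D and NKG7 at 0 in every library, the 4 monocyte markers to at most 0.434 CPM with FCGR3A at 0, and the 3 epithelial markers to at most 0.493 CPM with KRT19 at 0. The 4 fibroblast markers summed to 2.53 to 2.78 CPM in shEV, 9.89 to 10.6 CPM in PHF19_KD and 0.957 to 1.54 CPM in KD_Rescued, mostly from PDGFRB and COL1A1, and the part of either marker list in the results was not tested. Mitochondrially encoded genes took 2.84% to 3.32% of the counts in shEV, 9.02% to 10.03% in PHF19_KD and 4.99% to 5.18% in KD_Rescued. The names of the rescued libraries carry another sequencing lane than the rest, so an effect of lane cannot be told apart from one of rescue. In bulk RNA, a change in the share of cells with a transcript and a change in its amount per cell cannot be told apart either.

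The upstream sequences of 4 members are shown because these genes changed to very different degrees, and because NF-kB itself binds a known DNA motif that can be looked for in them. Each run is the 250 bases before the RefSeq gene start on assembly GRCh38.p14, 5′ to 3′ on the gene's strand, and capitals mark matches to the kappa B consensus on either strand. The positions belong to that assembly and not to the build of the counts. The windows lie at chr9:120929172-120929421 (minus strand) for TRAF1, at chr11:102317234-102317483 (plus strand) for BIRC3, at chr14:35404750-35404999 (minus strand) for NFKBIA and at chr6:137867009-137867258 (plus strand) for TNFAIP3.
TRAF1: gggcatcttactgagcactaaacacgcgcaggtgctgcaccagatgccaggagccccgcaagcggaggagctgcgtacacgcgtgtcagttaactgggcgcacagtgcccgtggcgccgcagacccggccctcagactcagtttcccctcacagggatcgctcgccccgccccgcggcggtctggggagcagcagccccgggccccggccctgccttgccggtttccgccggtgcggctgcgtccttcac
BIRC3: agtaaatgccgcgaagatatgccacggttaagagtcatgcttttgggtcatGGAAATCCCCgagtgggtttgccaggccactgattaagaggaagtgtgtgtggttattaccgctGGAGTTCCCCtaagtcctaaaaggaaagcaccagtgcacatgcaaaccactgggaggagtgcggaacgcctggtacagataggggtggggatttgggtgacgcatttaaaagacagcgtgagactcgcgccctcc
NFKBIA: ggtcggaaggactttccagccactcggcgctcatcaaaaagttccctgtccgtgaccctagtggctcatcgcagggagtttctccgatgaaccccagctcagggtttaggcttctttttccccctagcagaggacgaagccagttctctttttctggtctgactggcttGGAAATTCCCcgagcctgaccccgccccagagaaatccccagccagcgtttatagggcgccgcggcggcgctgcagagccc
TNFAIP3: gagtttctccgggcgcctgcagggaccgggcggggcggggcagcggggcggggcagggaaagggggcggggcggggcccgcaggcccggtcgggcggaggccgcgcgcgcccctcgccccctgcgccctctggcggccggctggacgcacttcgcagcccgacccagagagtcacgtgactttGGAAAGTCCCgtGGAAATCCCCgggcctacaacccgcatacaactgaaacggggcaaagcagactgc

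A window of 300 bases, which adds 50 bases after the start, was available from RefSeq for 9 of the 10 members, all but RELB. The kappa B consensus occurred in 6 of these 9 windows (66.7%), against 999 of the 14703 windows of tested genes (6.79%) and 2075 of all 35116 windows (5.91%). Counted back from the start, the first base of a match lay at -199 and -135 in BIRC3, at -81 in NFKBIA and at -67 and -55 in TNFAIP3. NFKB1 had a match at -49, TRAF3 had a match at -33, and REL had overlapping matches at -47 and -46 on opposite strands. No match was found in the windows of NFKB2, RELA and TRAF1. The members are NF-kB genes and several are known NF-kB targets, so a share above that of other windows is tied to the choice of list. The share of members with a match describes these windows only and shows no binding. The TRAF1 window held 32 CpG dinucleotides and the BIRC3 window 15, beside a median of 25 over the tested genes. Their GC content was 71.3% and 53.3%. The ratio of observed to expected CpG, which allows for GC content, was 0.840 and 0.736, beside a median of 0.807.

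The first comparison sets the knockdown cells against the empty vector controls. No group is named as carrying a non-targeting shRNA. Against shEV, an effect of carrying an shRNA therefore cannot be told apart from one of the PHF19 level. After knockdown, TRAF1 rose 8.67-fold and BIRC3 2.51-fold, while RELB, REL, NFKBIA and NFKB2 rose by less than 2-fold and TNFAIP3 fell. NFKB1, RELA and TRAF3 did not pass the test. In this comparison 7 of the 10 members were called (6 higher and 1 lower), with a call meaning an edgeR adjusted p below 0.05 over all tested genes. Of all 16600 genes tested, 69.1% were called, 34.9% higher and 34.2% lower, so the share of members called lies near that of all genes. The median log2 fold change was 0.32 over the members and 0.03 over all tested genes. At a change of at least 2-fold, 2 of the 10 members and 26.4% of all tested genes were called. Groups whose libraries do not overlap were common among all tested genes. This held for 72% of them in PHF19_KD against shEV, 77.2% in KD_Rescued against PHF19_KD and 61.7% in KD_Rescued against shEV.

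TRAF1, an adaptor of TNF receptor signalling and a known NF-kB target, had the widest range of the 10. Its level was 6.19, 5.01 and 5.19 CPM in shEV, 52.4, 42.2 and 47.6 CPM in PHF19_KD, and 24.3 and 26.3 CPM in KD_Rescued. The 3 groups did not overlap, with the rescued libraries between the others. The log2 fold change was 3.11 ± 0.11 (SE) in PHF19_KD against shEV (edgeR, adjusted p = 1.78e-10), and 2.79% of tested genes had a larger absolute change. The underlying counts were 137, 99 and 88 in shEV and 563, 510 and 549 in PHF19_KD.

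BIRC3 encodes cIAP2, a ubiquitin ligase of the TRAF complexes that also limits cell death. It was measured at 88.6, 79.8 and 93.3 CPM in shEV, at 229, 214 and 214 CPM in PHF19_KD, and at 85.7 and 84.1 CPM in KD_Rescued. The knockdown libraries all stood above both other groups, and the rescued libraries lay inside the range of the controls. The log2 fold change after knockdown was 1.33 ± 0.06 (SE; edgeR, adjusted p = 1.41e-09), and 18.8% of tested genes had a larger absolute change.

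**Figure D1:**
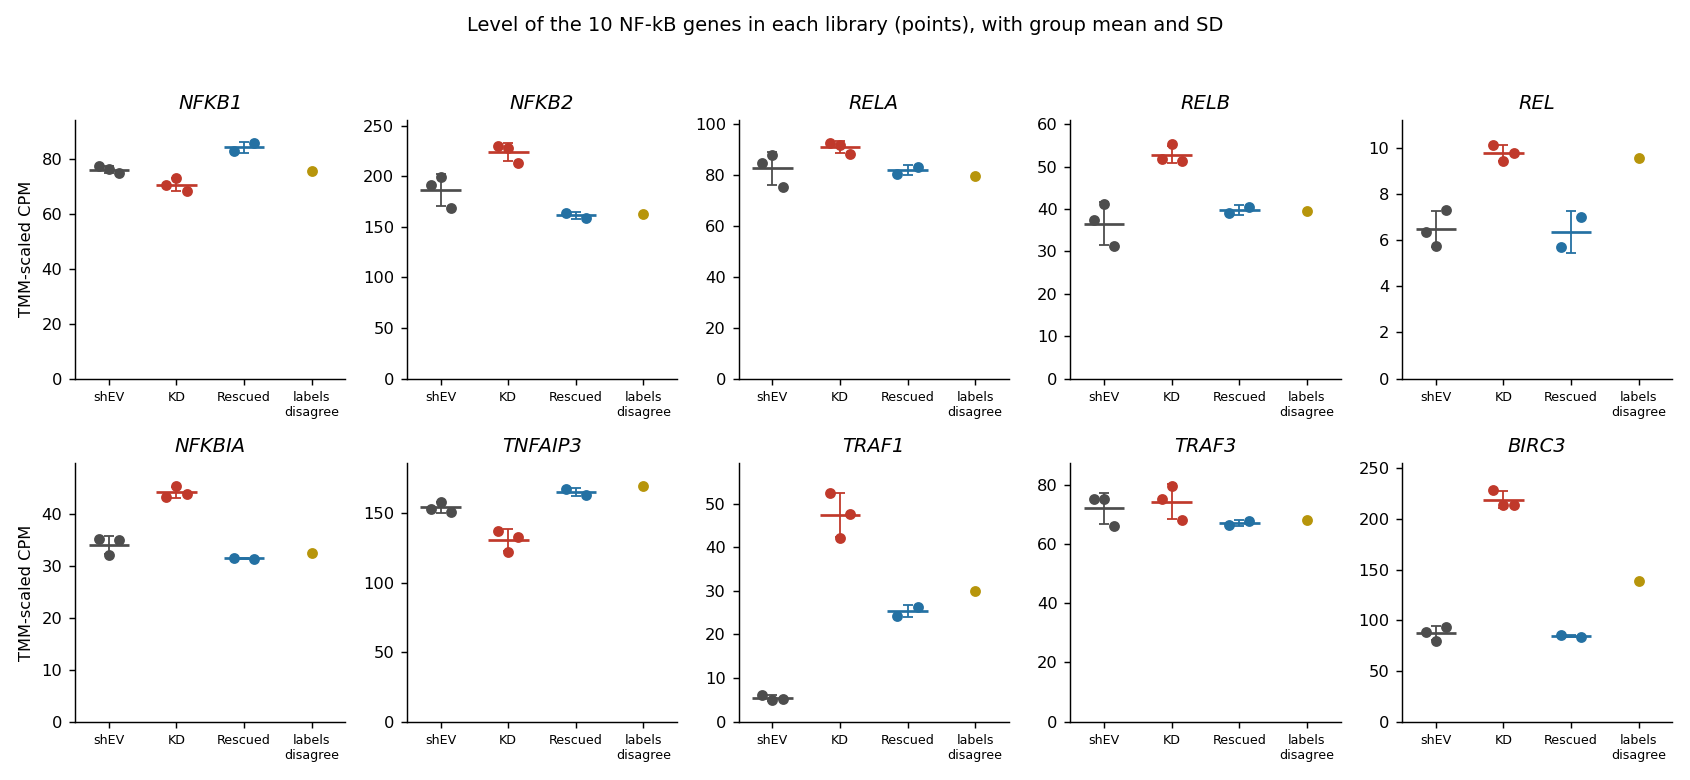
TMM-scaled CPM (vertical axes, each starting at 0) of the 10 genes in every library (points) by group, with lines and bars for the group mean and SD (n = 3, 3 and 2) and the library with disagreeing labels as a single point. TRAF1 separates all 3 groups, and BIRC3 in the rescued libraries lies inside the control range of 79.8 to 93.3 CPM.

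TRAF3, the adaptor that restrains NIK in the noncanonical branch, stood apart from TRAF1. Its level was 75.0, 75.0 and 66.0 CPM in shEV, 75.2, 79.5 and 67.9 CPM in PHF19_KD, and 66.3 and 67.8 CPM in KD_Rescued. The control and knockdown ranges overlapped. The log2 fold change after knockdown was 0.04 ± 0.07 (SE; edgeR, adjusted p = 0.608), and its sign turned to -0.02 without shEV replicate 3, to -0.0078 without PHF19_KD replicate 2 and to -0.05 with no filter on low counts. With upper-quartile scaling, which moved the median of all genes from 0.03 to 0.19, TRAF3 was called higher (0.20, adjusted p = 0.0154).

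Among the subunits, RELB, the partner of processed NFKB2, showed 37.3, 41.2 and 31.2 CPM in shEV, 51.8, 55.3 and 51.4 CPM in PHF19_KD, and 39.0 and 40.5 CPM in KD_Rescued. All knockdown libraries were above every control and rescued library. The rise was 0.53 ± 0.09 on the log2 scale (SE; edgeR, adjusted p = 0.000201). REL, which encodes c-Rel, a lymphoid subunit of the canonical branch, had 97 to 168 counts per library, so it was measured less precisely than most members. Its level was 6.38, 5.76 and 7.31 CPM in shEV, 10.1, 9.43 and 9.80 CPM in PHF19_KD, and 5.70 and 7.01 CPM in KD_Rescued. The knockdown libraries stood above every control and rescued library, with a log2 fold change of 0.60 ± 0.13 (SE; edgeR, adjusted p = 0.00108).

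NFKB2, the precursor gene of the noncanonical branch, was at 192, 199 and 169 CPM in shEV, at 229.9, 228 and 214 CPM in PHF19_KD, and at 164 and 159 CPM in KD_Rescued. The groups were ordered knockdown, control, rescued without overlap. The log2 fold change after knockdown was 0.26 ± 0.06 (SE; edgeR, adjusted p = 0.00189), and this call was lost when the library with disagreeing labels was counted as a knockdown (0.18, adjusted p = 0.203). RELA, the main transactivating subunit of the canonical branch, showed 84.5, 87.8 and 75.2 CPM in shEV, 92.5, 91.6 and 88.1 CPM in PHF19_KD, and 80.3 and 83.1 CPM in KD_Rescued. The difference of 0.14 ± 0.06 (SE) on the log2 scale was not called (edgeR, adjusted p = 0.0597). Its call depended on the fit: RELA was called without shEV replicate 2 (0.18, adjusted p = 0.0174), in a fit of the 2 groups alone (0.15, adjusted p = 0.0428), with a minimum of 5 CPM (0.23, adjusted p = 0.00269) and with upper-quartile scaling (0.29, adjusted p = 0.000431).

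NFKB1, the precursor gene of the canonical branch, was at 77.3, 76.4 and 74.8 CPM in shEV, at 70.6, 73.0 and 68.3 CPM in PHF19_KD, and at 82.9 and 85.7 CPM in KD_Rescued. Here the knockdown libraries were the lowest and the rescued ones the highest. The log2 fold change after knockdown, -0.11 ± 0.05 (SE; edgeR, adjusted p = 0.0593), was not called, and its sign turned with upper-quartile scaling (0.05, adjusted p = 0.414). It was called without shEV replicate 3 (-0.12, adjusted p = 0.0181), without mitochondrially encoded genes (-0.14, adjusted p = 0.0199) and with no filter (-0.20, adjusted p = 0.00318).

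The 2 inhibitors moved in opposite directions. NFKBIA, the IkB-alpha gene and a classical feedback target, was at 35.2, 32.1 and 35.0 CPM in shEV, at 43.4, 45.4 and 43.9 CPM in PHF19_KD, and at 31.5 and 31.4 CPM in KD_Rescued. All knockdown libraries were the highest, and the rise was 0.38 ± 0.06 (log2, SE; edgeR, adjusted p = 0.000120). TNFAIP3 encodes a ubiquitin-editing enzyme that ends NF-kB signalling. Its level was 153, 158 and 151 CPM in shEV, 137, 122 and 133 CPM in PHF19_KD, and 167 and 163 CPM in KD_Rescued. Its knockdown libraries were the lowest, with a log2 fold change of -0.24 ± 0.05 (SE; edgeR, adjusted p = 0.00111). This call was lost with upper-quartile scaling (-0.08, adjusted p = 0.175) and when the library with disagreeing labels was counted as a knockdown (-0.12, adjusted p = 0.263).

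With upper-quartile scaling the calls after knockdown were 8 higher and 0 lower among the members, and 60.6% of all calls were higher, against 50.5% in the fit reported here. The calls for TRAF1, BIRC3, RELB, REL and NFKBIA after knockdown held under all 19 alternatives tried. Counts of NFKB2, REL, TNFAIP3 and BIRC3 were not whole in 8, 6, 5 and 8 of the 9 libraries (tolerance 0.01), so part of their reads may belong to other genes. Exons of RELA, REL and TNFAIP3 overlap those of AP001362.2, AC010733.2 and AL357060.1 in GENCODE, so their values are uncertain to that extent. Unlike those of REL and TNFAIP3, the counts of RELA were whole in every library.

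**Figure D2:**
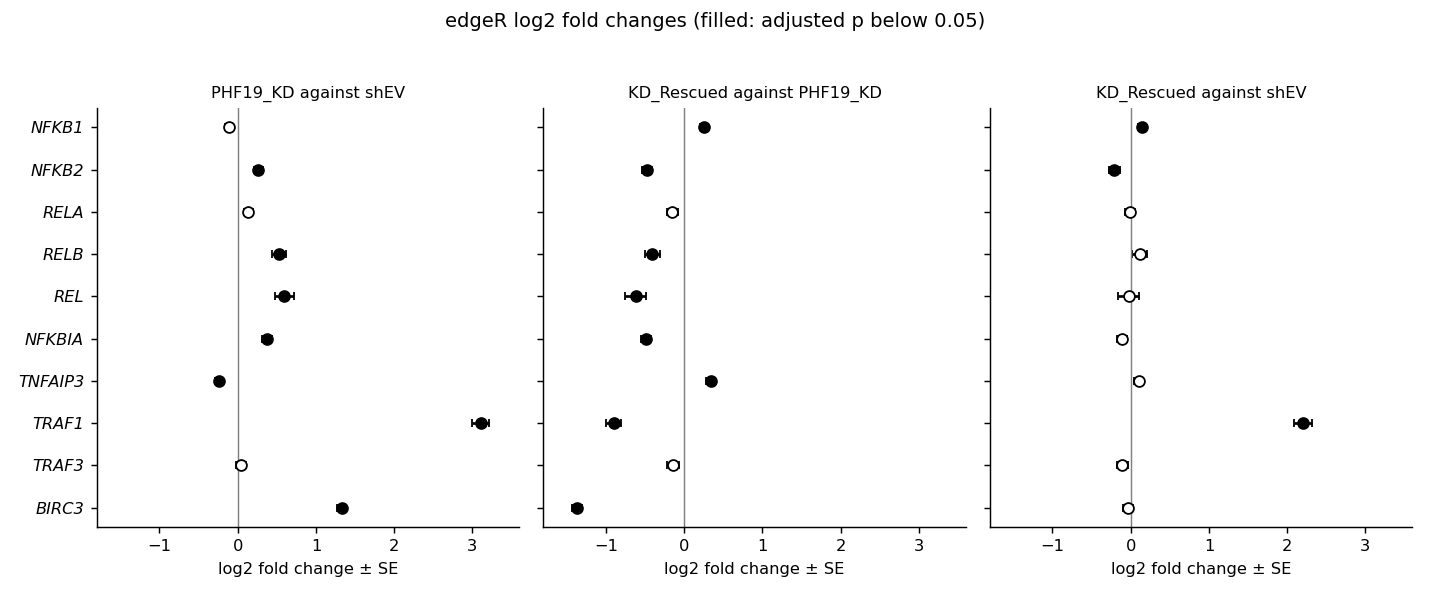
Log2 fold change (horizontal axes) with its SE for the 10 genes in the 3 comparisons, filled where the edgeR adjusted p was below 0.05. TRAF1 stands at 3.11 after knockdown and still at 2.20 in rescued cells against the controls, while BIRC3 goes from 1.33 to -0.04.

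The second comparison sets rescued cells, where PHF19 stood above the controls, against knockdown cells. None of the groups is named as knockdown cells with an empty vector in place of shRNA-resistant PHF19. An effect of carrying the added construct, or of lane, therefore cannot be told apart from one of the PHF19 level. BIRC3, TRAF1, REL, NFKBIA, NFKB2 and RELB fell and TNFAIP3 and NFKB1 rose, so 8 of 10 members were called (2 higher and 6 lower), beside 63.4% of all tested genes (33.9% higher and 29.5% lower). The median log2 fold change was -0.44 over the members and 0.03 over all genes. Both comparisons share the knockdown libraries, so they are not independent. BIRC3 fell by 1.37 ± 0.07 on the log2 scale (SE; edgeR, adjusted p = 4.52e-09) and TRAF1 by 0.90 ± 0.10 (adjusted p = 6.41e-06).

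Of the subunits, REL changed by -0.62 ± 0.14 (log2, SE; edgeR, adjusted p = 0.00172), NFKB2 by -0.47 ± 0.07 (adjusted p = 6.16e-05) and RELB by -0.41 ± 0.10 (adjusted p = 0.00267). NFKBIA changed by -0.49 ± 0.07 (adjusted p = 3.57e-05). TNFAIP3 rose by 0.34 ± 0.05 (adjusted p = 0.000175) and NFKB1 by 0.26 ± 0.05 (adjusted p = 0.000998). RELA, at -0.15 ± 0.07 (adjusted p = 0.0632), and TRAF3, at -0.15 ± 0.08 (adjusted p = 0.110), were not called.

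Both of these were called in several alternatives. Members called numbered 10 with RLE scaling, a minimum of 5 CPM, the 2-group fit, the replicate block or without shEV replicate 3. They numbered 7 with the library of disagreeing labels counted on either side. RELA was called without shEV replicate 2 (-0.16, edgeR adjusted p = 0.0344) and without shEV replicate 3 (-0.15, adjusted p = 0.00367), and TRAF3 without shEV replicate 3 (-0.15, adjusted p = 0.0204) and without PHF19_KD replicate 3 (-0.21, adjusted p = 0.0315). The split over the members became 1 higher and 8 lower with upper-quartile scaling, where 42.1% of all calls were higher against 53.4% in the fit reported here, and NFKB1 lost its call (0.10, adjusted p = 0.114). Counting the library with disagreeing labels as rescued ended the calls of NFKB1 (0.14, adjusted p = 0.126) and REL (-0.48, adjusted p = 0.0800), and counting it as a knockdown ended that of TNFAIP3 (0.18, adjusted p = 0.163).

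The third comparison sets rescued cells against the controls, with PHF19 log2 0.91 ± 0.07 higher in the rescued cells (SE; edgeR, adjusted p = 2.46e-06), a PHF19 call lost with the ninth library counted as a knockdown (0.86, adjusted p = 0.105) or as rescued (0.49, adjusted p = 0.380). TRAF1 remained well above the control level, at 4.64-fold. Its log2 fold change was 2.20 ± 0.12 (SE; edgeR, adjusted p = 1.93e-07), its mean was 53.5% of the knockdown mean, and 1.78% of tested genes had a larger absolute change. NFKB1 was called higher (0.15 ± 0.05, adjusted p = 0.0374) and NFKB2 lower (-0.21 ± 0.07, adjusted p = 0.0261). Thus 3 of 10 members were called (2 higher and 1 lower), beside 39.8% of all tested genes (20.7% higher and 19.1% lower), and the member median was -0.02 against 0.02 over all genes.

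The other 7 members were not called. BIRC3 stood at 97.3% of the control mean (-0.04 ± 0.06 on the log2 scale, SE; edgeR, adjusted p = 0.677), REL at 98.0%, RELA at 99.1%, RELB at 109%, TNFAIP3 at 107%, TRAF3 at 93.1% and NFKBIA at 92.3%. The signs of BIRC3, REL and RELA turned without single libraries, with highest values of 0.0091, 0.11 and 0.03 on the log2 scale. The TRAF1 call held under all 19 alternatives. The NFKB1 call was lost under 14 of them, including leaving out shEV replicate 1 or 2, PHF19_KD replicate 1 or 3, or either rescued library (adjusted p from 0.0512 to 0.270), and RLE scaling (0.10, adjusted p = 0.150), which left 1 member higher and 1 lower. The NFKB2 call was lost without shEV replicate 1 or 2 or either rescued library (adjusted p from 0.0609 to 0.143). TRAF3 was called without shEV replicate 3 (-0.16, adjusted p = 0.0195). When the library with disagreeing labels was counted as a knockdown or as rescued, TRAF1 was the only member called.

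Ratios within a library do not depend on the scaling between libraries. The ratio of NFKB2 to NFKB1 counts was 2.45 ± 0.177 (SD, n = 3) in shEV, 3.17 ± 0.0728 (n = 3) in PHF19_KD and 1.92 ± 0.0898 (n = 2) in KD_Rescued. For RELB to RELA the ratio was 0.442 ± 0.0270, 0.582 ± 0.0216 and 0.486 ± 0.00156 in the same order. Both ratios were highest in the knockdown libraries, without overlap. In the rescued libraries NFKB2 to NFKB1 lay below every control and RELB to RELA above every control. REL, also a canonical subunit, is in neither ratio. After knockdown it rose by 0.60 on the log2 scale, beside 0.53 for RELB, so these 2 ratios do not describe the branches as wholes. The ratio of TRAF1 to TRAF3 was 0.0760 ± 0.00826, 0.643 ± 0.0972 and 0.378 ± 0.0151, and that of TNFAIP3 to NFKBIA was 4.53 ± 0.351, 2.96 ± 0.245 and 5.25 ± 0.0805. None of these ratios was tested, and a ratio shows unequal change without saying which gene moved.

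Plotted against PHF19, the library with disagreeing labels had 63.6 CPM of PHF19, between the knockdown and control libraries and 54.5% of the control mean. TRAF1 in it was 29.9 CPM and BIRC3 139 CPM, which are 63.0% and 63.4% of the knockdown means. Of the rescued means they are 118% and 164%. REL, at 9.56 CPM, lay inside the knockdown range and above the rescued libraries. NFKBIA, at 32.4 CPM, lay inside the control range and at 103% of the rescued mean. RELB, at 39.4 CPM, lay inside the control range and inside the rescued range.

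**Figure D3:**
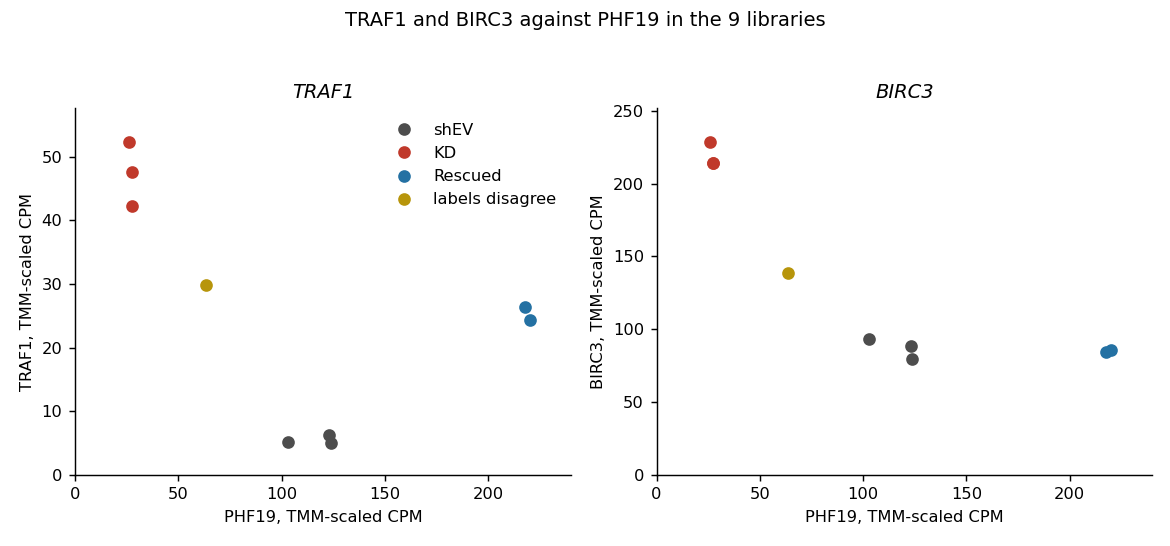
TRAF1 (left) and BIRC3 (right) against PHF19, all in TMM-scaled CPM, with 1 point per library coloured by group. BIRC3 in the rescued libraries lies inside the control range (79.8 to 93.3 CPM), whereas TRAF1 in the rescued libraries (24.3 and 26.3 CPM) is above the controls (5.01 to 6.19 CPM) although PHF19 is highest there.

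TRAF1 is also the next protein-coding gene after PHF19 on chromosome 9 in the RefSeq order, with 0 protein-coding genes between them. This was looked at after the values had been seen. The other neighbour on the TRAF1 side, C5, was not called after knockdown (-0.21 ± 0.13, log2, SE; edgeR, adjusted p = 0.173) and PSMD5 on the PHF19 side was not called either (-0.15 ± 0.07, adjusted p = 0.0836). Farther out, MEGF9 rose by 0.68 ± 0.05 (adjusted p = 2.19e-07), CNTRL fell by 0.70 ± 0.08 (adjusted p = 1.24e-05) and GSN rose by 2.43 ± 0.20 (adjusted p = 4.00e-07). The remaining neighbours tested, FBXW2 and RAB14, were not called. In rescued cells against controls, TRAF1 was at 2.20 ± 0.12, CNTRL at 0.70 ± 0.08 (adjusted p = 4.83e-05), FBXW2 and RAB14 at 0.34 each (adjusted p = 0.000297 and 0.00144), PSMD5 at 0.32 ± 0.07 (adjusted p = 0.00479), MEGF9 at -0.40 ± 0.06 (adjusted p = 0.000263), C5 at -0.37 ± 0.14 (adjusted p = 0.0509) and GSN at 0.01 ± 0.25 (adjusted p = 0.996). Whether the position next to the targeted gene bears on TRAF1 was not tested.

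**Figure D4:**
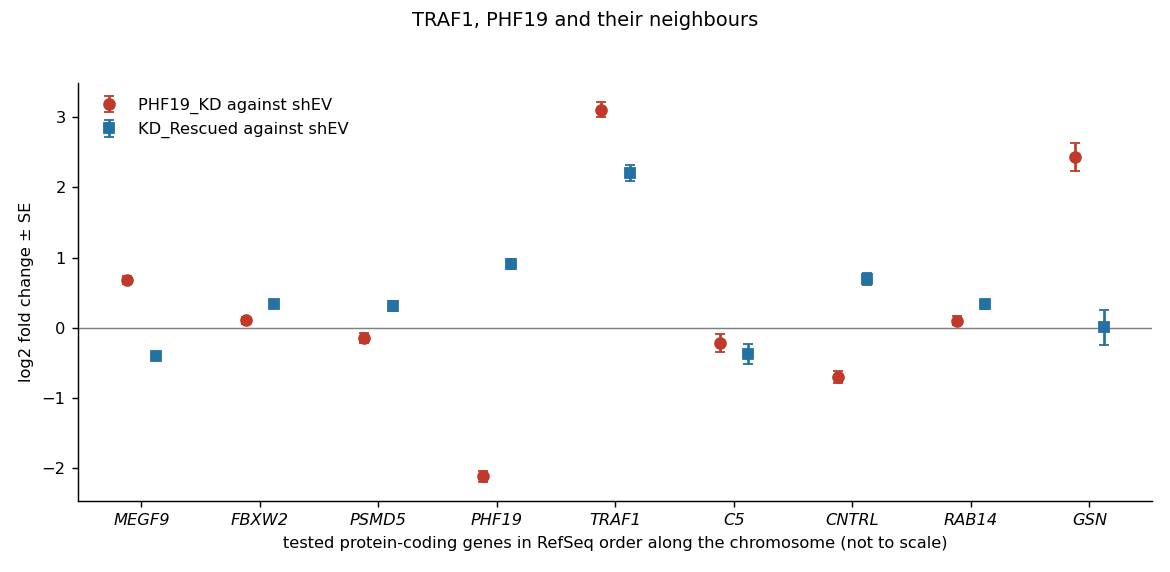
Log2 fold change with its SE (vertical axis) for the tested protein-coding genes around PHF19 and TRAF1 in RefSeq order (horizontal axis, not to scale), after knockdown (circles) and in rescued cells (squares), both against shEV. TRAF1 is at 3.11 and 2.20, and its neighbour C5 at -0.21 and -0.37.

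Among 12585 genes with a mean log2 CPM of at least 1, the 5 whose pair of log2 fold changes against the controls lay nearest to that of TRAF1 were MX2, H6PD, MST1, PTPRVP and IL11RA. MX2, an interferon-induced antiviral gene, was at 3.11 after knockdown and 2.20 after rescue (distance 0.0099). H6PD, an enzyme of the endoplasmic reticulum, was at 3.10 and 2.11 (distance 0.094). The other 3 lay at distances of 0.20 (MST1), 0.21 (PTPRVP) and 0.28 (IL11RA). The likeness rests on 3 group means and says nothing of shared control.

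The wider pathway was followed in 113 further genes, of which 81 were tested. After knockdown 36 of the 81 rose and 23 fell (72.8% called, beside 69.1% of all genes), with a median log2 fold change of 0.12. TNFAIP2, a TNF-induced target, rose by 3.61 ± 0.15 (log2, SE; edgeR, adjusted p = 7.44e-10), from a mean of 1.07 to 13.4 CPM. CCL5, a chemokine, rose by 1.73 ± 0.08 (adjusted p = 1.71e-09), while the chemokine CCL3 fell by 1.70 ± 0.05 (adjusted p = 2.18e-11) and the survival gene BCL2L1 by 1.04 ± 0.04 (adjusted p = 9.58e-10). Of the 18 tested target genes, 7 rose and 7 fell (77.8% called; median 0.01). The CCL3 call was lost when the library with disagreeing labels, at 1468 CPM of CCL3, was counted as a knockdown (-0.74, adjusted p = 0.310).

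Of 15 tested receptors and ligands, 5 rose and 6 fell after knockdown (73.3% called, beside 69.1% of all tested genes; median -0.05). The receptor CD40, which signals through TRAF proteins, rose from 12.5 ± 0.759 to 32.7 ± 3.42 CPM (SD, n = 3; log2 1.39 ± 0.09, SE; edgeR, adjusted p = 4.39e-08) and was at 12.9 ± 0.264 CPM (n = 2) in rescued cells. TNFRSF17, the plasma cell receptor BCMA, fell by 1.07 ± 0.05 (adjusted p = 2.89e-09) and TNFRSF13B, its relative TACI, by 1.23 ± 0.08 (adjusted p = 2.12e-07). TLR4, the endotoxin receptor, rose by 0.93 ± 0.08 (adjusted p = 3.40e-07), not called when the ninth library was placed among the rescued ones (0.96, adjusted p = 0.0615).

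Of 16 tested adaptors and kinases upstream of IKK, 5 rose and 6 fell after knockdown (68.8% called, beside 69.1% of all tested genes; median 0.03). IRAK2, an IRAK family gene of Toll-like receptor signalling, rose by 2.62 ± 0.17 (log2, SE, edgeR adjusted p = 4.48e-08), from a mean of 1.36 to 8.31 CPM. TRADD, the TNF receptor adaptor, rose by 0.95 ± 0.10 (adjusted p = 1.06e-05). MALT1, a protease and scaffold of antigen receptor signalling to IKK, fell by 0.44 ± 0.05 (adjusted p = 3.79e-06). Among 10 genes of the IkB and IKK list, 4 rose and 2 fell (60% called; median 0.05). NFKBIZ, a nuclear IkB protein, rose by 1.46 ± 0.11 (adjusted p = 1.27e-07) and NKIRAS2 by 0.38 ± 0.06 (adjusted p = 0.000139), whereas CHUK, the IKK-alpha kinase, fell by 0.93 ± 0.07 (adjusted p = 1.57e-07) and NFKBIB by 0.67 ± 0.13 (adjusted p = 0.00129).

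Of 8 further TRAF, cIAP and NIK genes, 5 rose and 0 fell after knockdown (62.5% called, beside 69.1% of all tested genes, 34.9% higher and 34.2% lower; median 0.21). BIRC2, which encodes cIAP1, rose by 0.29 ± 0.06 (log2, SE; edgeR, adjusted p = 0.000882) and PELI1, a ubiquitin ligase, by 0.50 ± 0.05 (adjusted p = 4.81e-06), the latter not called when the ninth library was placed among the rescued ones (0.53, adjusted p = 0.0827). Of 10 tested negative regulators, 7 rose and 2 fell (90% called; median 0.20). The RNase gene ZC3H12A rose by 1.26 ± 0.09 (adjusted p = 8.45e-08) and TNIP1, which binds the TNFAIP3 protein, by 0.42 ± 0.05 (adjusted p = 7.25e-06), while OTULIN, a deubiquitinase of linear chains, fell by 0.84 ± 0.06 (adjusted p = 5.78e-08). In an 11-gene myeloma NF-kB signature, drawn up from memory of the literature, 7 rose and 2 fell (81.8% called, median 0.38). Among the 10 members are 5 of its genes, and the rises of BIRC3, NFKB2, NFKBIA and RELB are those given above. Of the signature genes that are not members, CD74 rose by 0.90 ± 0.04 (adjusted p = 3.01e-09), IL2RG by 0.54 and WNT10A by 0.65. NFKBIE and PLEK were not called, and the falls were those of MALT1 and TNFAIP3 given above.

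**Figure D5:**
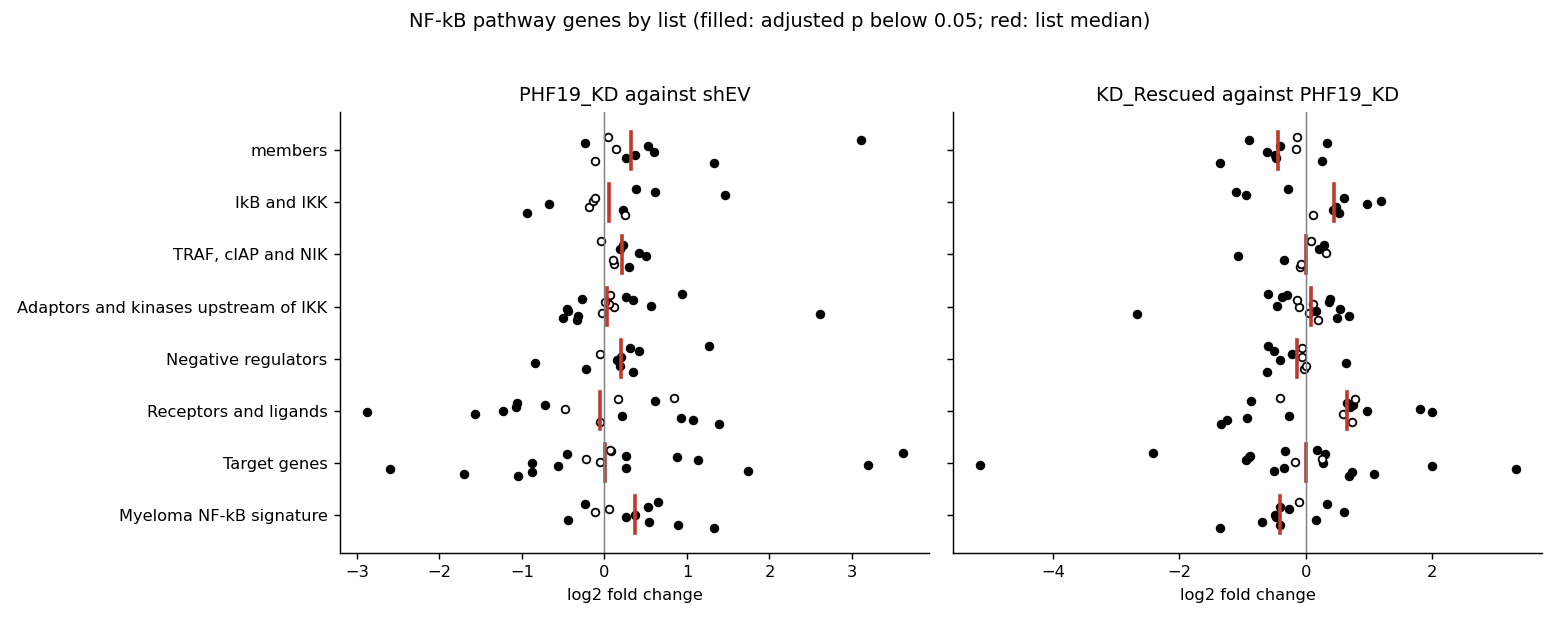
Log2 fold changes (horizontal axes) of the tested pathway genes in each list (rows, spread vertically only for legibility) after knockdown and after rescue, filled where the edgeR adjusted p was below 0.05, with red lines at list medians. Calls lie on both sides of 0 in most lists, with medians after knockdown between -0.05 and 0.38.

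In rescued against knockdown cells, 29 of the 81 further genes rose and 31 fell (74.1% called, beside 63.4% of all genes), with a median of -0.03, and 22 rose and 41 fell with upper-quartile scaling. The 60 calls became 32 with the ninth library placed among the rescued ones. IRF1, a transcription factor and NF-kB target, fell by 0.90 ± 0.05 (log2, SE; edgeR, adjusted p = 1.32e-08) and TNFAIP2 by 2.43 ± 0.15 (adjusted p = 3.07e-08). OTULIN rose by 0.64 ± 0.06 (adjusted p = 1.89e-06) and TNFRSF1A, a receptor for TNF, by 0.75 ± 0.07 (adjusted p = 1.97e-06). IRAK2 fell by 2.68 ± 0.19 (adjusted p = 1.42e-07) and CD40 by 1.34 ± 0.10 (adjusted p = 1.96e-07), but neither was called when the ninth library was placed among the rescued ones (-1.55, adjusted p = 0.0619, and -0.81, adjusted p = 0.0869).

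In rescued cells against controls, 23 of the 81 rose and 21 fell (54.3% called, beside 39.8% of all genes), with a median of 0.03, and 19 rose and 26 fell with RLE scaling. The 44 calls became 26 without KD_Rescued replicate 1, 28 without KD_Rescued replicate 2, and 24 or 17 with the ninth library placed among the knockdown or the rescued ones. CCL5 stayed above the control level, by 1.23 ± 0.08 (log2, SE; edgeR, adjusted p = 9.64e-07), as did ZC3H12A, by 0.67 ± 0.09 (adjusted p = 0.000198). MARCKSL1 was at -0.63 ± 0.06 (adjusted p = 6.72e-06).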

How the data were processed

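The authors deposited unscaled estimated counts for each gene. The submitters' processing notes list CASAVA, RSEM and hg19, with no roles or versions, whereas salmon appears in the table's name, so the counting program is not settled, annotation and strandedness being not given in the sources used here. After rounding, they were tested with edgeR 4.0.16 (R 4.3.3): filterByExpr, TMM scaling and robust quasi-likelihood fits of 8 libraries with group means and no block, with Benjamini-Hochberg adjustment over 16600 genes. Alternatives were RLE and upper-quartile scaling, no filter, a minimum of 5 CPM, DESeq2 1.42.0, limma-voom (limma 3.58.1), a replicate block and 2-group fits. Further ones were no mitochondrially encoded genes, the library with disagreeing labels counted either way, and leaving out each library. SE is the absolute log2 fold change over sqrt(F). Named pathway genes are at most 4 per list and comparison, the 2 called rises and 2 called falls with the lowest adjusted p, of which a part is given. The members, lists and naming rule were chosen with earlier results of these data known. Separate cultures are not named for the replicates, so p-values measure the spread between libraries, which may be technical. Spread between 2 libraries was also taken as chi-square per degree of freedom over genes with whole counts. For shEV replicate 3 it was 8.14 against replicate 1 and 9.15 against replicate 2, beside 2.25 between replicates 1 and 2. The other groups gave 1.37 to 2.23. The part of this library in calls that changed without it was not tested.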

Additional observations from a re-analysis of the deposited data

Results flagged for a closer look

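The library with disagreeing labels was left out of the fit reported here and entered only the alternatives that counted it either way. In it 4 of the 10 genes were higher than in every control library and 5 lay within the control range. The remaining 1 (NFKB2, at 163 CPM against a lowest control of 169) was lower. Of all 16600 tested genes, 41.3% were above and 38.7% below every control library, so the share of members above is near that of all genes. REL was at 9.56 CPM (highest control 7.31), TNFAIP3 at 169.5 CPM (highest control 158), TRAF1 at 29.9 CPM (highest control 6.19) and BIRC3 at 138.9 CPM (highest control 93.3). It is a single library, so there is no replicate spread beside these values.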

How the results depend on the processing

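Over the 10 genes and 3 comparisons, 502 of 570 values under the alternatives kept their direction and their side of the threshold, 27 lost a call, 27 gained one and 14 changed sign. None of the sign changes concerned a called value: NFKB1 after knockdown (0.047, upper-quartile scaling), TRAF3 after knockdown (-0.050 with no filter, and -0.017 to 0.11 when single libraries were left out), and, in rescued cells against controls, RELA (0.0081 with a 5 CPM minimum, -0.077 to 0.025 without single libraries), REL (0.020 with the replicate block, 0.14 with the library of disagreeing labels as rescued, -0.19 to 0.11 without single libraries) and BIRC3 (0.20 with that library as rescued, -0.10 to 0.0091 without single libraries). Members called in rescued cells against controls numbered 3, 1 with that library as a knockdown, 1 with it as rescued, and 1 to 4 without single libraries. The further pathway genes called there numbered 44, but 24 and 17 with that library as a knockdown or as rescued, and 26 (without KD_Rescued replicate 1) to 49 (without shEV replicate 3). Against the knockdown they numbered 60, and 32 with that library as rescued. All genes called in rescued cells against controls were 6599, and 4047 or 2464 with that library as a knockdown or as rescued, and against the knockdown 10526, and 6207 with it as rescued. PHF19 in rescued cells against controls was not called with that library on either side (0.86, adjusted p = 0.105, and 0.49, adjusted p = 0.380). The cause was not tested.

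Whether the replicate numbers pair the libraries is not settled. Same-numbered libraries correlated by -0.02 to 0.06 after removal of the group means, and other pairs by -0.07 to 0.02. With only 2 or 3 libraries per group, deviations from a group mean must sum to 0, so these correlations cannot decide it. With the replicate block, members called numbered 8, 10 and 3 in the 3 comparisons: RELA was called after knockdown (0.14, adjusted p = 0.0266), RELA and TRAF3 in rescued against knockdown cells (-0.19, adjusted p = 0.0113, and -0.21, adjusted p = 0.00679), and against controls TRAF3 was called (-0.16, adjusted p = 0.0322) and NFKB1 was not (0.13, adjusted p = 0.0765). The lowest counts were those of TRAF1 in shEV (88 to 137 per library) and of REL in all 9 libraries (97 to 168).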
